A study of Mus musculus with 15 samples.

Results

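Of the 23235 genes in the RNA-seq table of mouse cortex, 86 have symbols of the form used for collagen chains, laminin chains or integrin subunits. They were chosen by symbol alone, with *Itgam* left out, so no measured value decided which genes belong. They comprise 43 collagen chains, 11 laminin chains and 26 integrin subunits, together with 6 genes whose symbols have the same form but whose products are none of these. The table holds FPKM, fragments counted per length of transcript and scaled to the number mapped, with 1 value for each of 4 groups of mice. Adult cortex came from WT C57BL/6J mice, 3 at Zt +6 and 2 at Zt +16, and from *Snord116del* (+/-) mice of the strain B6(Cg)-Snord116tm1.1Uta/J, 2 at Zt +6 and 2 at Zt +16. Zt counts hours from the start of the light phase, so Zt +6 lies in the light and Zt +16 in the dark. The *Snord116del* mice inherited their deletion through the father, the parent whose copy of this imprinted locus is active, and carried it in every cell. Each group value pools its mice and the values show no spread between them, so no SD or p-value is given here, and every difference below is a difference between 2 pooled values.

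Collagens, laminins and integrins are the scaffold and the grip of tissues. Collagen and laminin chains are secreted as trimers and assemble outside the cell into fibrils, filaments or the sheet called the basement membrane, and integrins, each made of an alpha and a beta subunit, hold cells to that sheet and pass signals across the plasma membrane. In the brain the basement membrane lies mainly around blood vessels and beneath the pia, while integrins are also found on neurons, astrocytes and microglia.

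The groups differed in scale before any single gene is considered. Over the 10297 genes that averaged 1 FPKM or more, the median was 3.17 in WT Zt +6, 5.63 in *Snord116del* Zt +6, 2.90 in WT Zt +16 and 4.00 in *Snord116del* Zt +16. The FPKM of all genes summed to 159300, 160199, 216422 and 342188 in the same order. *Snord116* itself was listed at 0 in all 4 groups and so does not check the genotype labels. *Ipw*, a neighbouring transcript of the same locus, had 21.6 FPKM in WT against 3.40 in *Snord116del* at Zt +6, and 3.17 against 1.82 at Zt +16. Its WT value at Zt +16 lay under its *Snord116del* value at Zt +6, so its level alone does not tell the genotypes apart. *Snrpn*, also of this locus, had 65.3 FPKM in WT against 105 in *Snord116del* at Zt +6, and 90.0 against 149 at Zt +16. All 10 neuronal and all 8 astrocyte markers had values above 0 in every group, with summed levels of 673 to 1130 FPKM and 386 to 813 FPKM. The 8 choroid plexus markers summed to 204 and 188 FPKM at Zt +6 and to 27.1 and 32.3 FPKM at Zt +16, most of it *Ttr*, and were thus lower in the dark phase in both genotypes.

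Most of these genes were low. Their mean over the 4 groups was under 0.1 FPKM for 12 of the 86, from 0.1 to 1 FPKM for 59, from 1 to 3 FPKM for 13 and above 3 FPKM for 2. At least 1 FPKM was reached by 11 of them (12.8%) in WT Zt +6, 28 (32.6%) in *Snord116del* Zt +6, 8 (9.30%) in WT Zt +16 and 13 (15.1%) in *Snord116del* Zt +16. Over all genes of the table the same shares were 40.5%, 49.6%, 36.5% and 40.6%, so the share was lower for matrix and integrin genes in every group, and the shares were closest in *Snord116del* Zt +6. All 86 together summed to 42.8, 101, 36.8 and 51.6 FPKM in the order just given. As a share of all FPKM of the group this was 0.0268%, 0.0633%, 0.0170% and 0.0151%, so by share *Snord116del* Zt +16 was the lowest group. The values listed at 0 were those of *Itgb2l* and *Itgb1bp2*, both in *Snord116del* Zt +6.

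**Figure D1:**
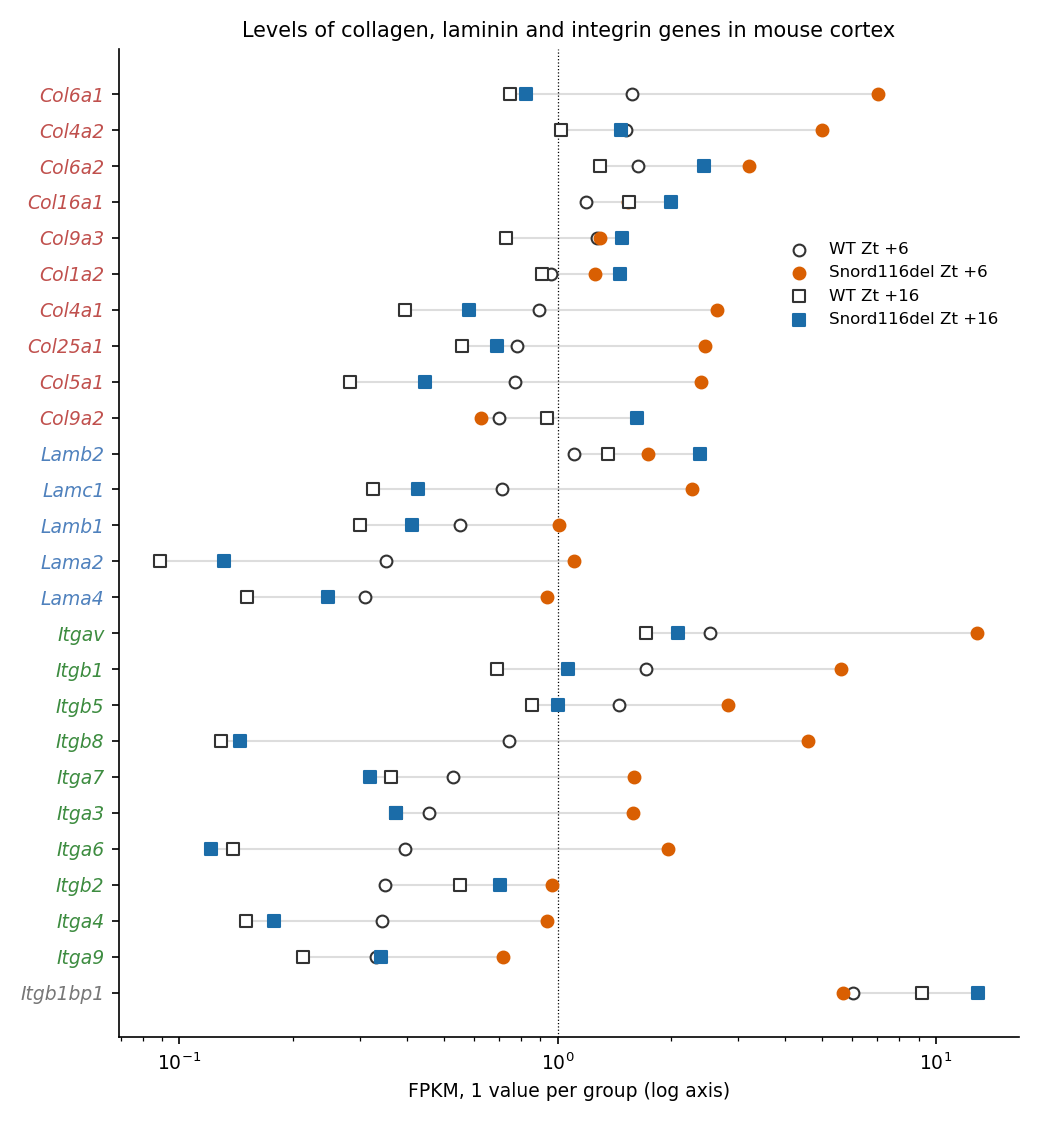
FPKM of the 10 collagens and 10 integrins with the highest mean, of 5 laminins and of *Itgb1bp1*, on a log axis with 1 point per group (open circles WT Zt +6, orange circles *Snord116del* Zt +6, open squares WT Zt +16, blue squares *Snord116del* Zt +16). The orange point lies far to the right for *Itgav* (12.8 FPKM), *Col6a1* (7.03) and *Itgb8* (4.60), but not for *Col16a1*, *Col9a2*, *Lamb2* or *Itgb1bp1*, whose highest value is in *Snord116del* Zt +16.

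Type IV collagen is the network-forming collagen of every basement membrane, and its chains are encoded in pairs of genes that lie head to head and are read in opposite directions. The ubiquitous pair is *Col4a1* with *Col4a2*, and the restricted pairs, found in kidney and a few other membranes, are *Col4a3* with *Col4a4* and *Col4a5* with *Col4a6*. In GENCODE annotation of mm9 the 5' ends of *Col4a1* (minus strand) and *Col4a2* (plus strand) overlap by 22 bases, those of *Col4a4* and *Col4a3* lie 71 bases apart and those of *Col4a6* and *Col4a5* 1308 bases apart. The 300 bases centred between the starts are shown for the first 2 pairs, plus strand, because a single stretch of DNA serves both genes of a pair there. Capitals mark CCAAT and GGGCGG on either strand, the letters read by CCAAT-binding factors and by Sp1.
Col4a1/Col4a2, chr8:11312666-11312965: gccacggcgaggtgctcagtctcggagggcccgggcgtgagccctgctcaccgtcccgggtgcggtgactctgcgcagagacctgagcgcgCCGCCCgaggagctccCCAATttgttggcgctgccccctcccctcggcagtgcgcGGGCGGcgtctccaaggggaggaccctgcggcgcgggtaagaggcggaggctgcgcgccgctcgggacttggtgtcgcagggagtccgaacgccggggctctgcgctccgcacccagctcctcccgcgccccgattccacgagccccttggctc
Col4a4/Col4a3, chr1:82583311-82583610: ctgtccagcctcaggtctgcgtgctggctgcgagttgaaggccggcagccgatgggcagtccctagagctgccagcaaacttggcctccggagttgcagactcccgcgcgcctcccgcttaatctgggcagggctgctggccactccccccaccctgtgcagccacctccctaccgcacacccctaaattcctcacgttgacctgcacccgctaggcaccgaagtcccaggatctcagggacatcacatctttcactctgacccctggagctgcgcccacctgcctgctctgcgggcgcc
The *Col4a1*/*Col4a2* window was 74% G + C with 37 CpG, 1 CCAAT and 2 GGGCGG, and the *Col4a4*/*Col4a3* window 65.3% G + C with 16 CpG and neither motif. Neither window held TATAAA. Among 22235 windows of 300 bases centred on the annotated starts of protein-coding genes, 35.8% held CCAAT, 45.8% held GGGCGG and 10.8% held TATAAA, and the median number of CpG was 15.

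The 2 genes that share the CpG-rich window had levels far above those of the other pairs. *Col4a2* stood at 1.52 FPKM in WT Zt +6, 5.01 in *Snord116del* Zt +6, 1.02 in WT Zt +16 and 1.47 in *Snord116del* Zt +16. *Col4a1* stood at 0.894, 2.64, 0.395 and 0.582 FPKM in the same order. Both therefore had their highest value in *Snord116del* Zt +6 and their lowest in WT Zt +16, and *Col4a2* was the higher by 1.70, 1.90, 2.58 and 2.53 times. *Col4a3*, *Col4a4*, *Col4a5* and *Col4a6* never exceeded 0.194 FPKM. The remaining basement membrane collagens, *Col15a1* and *Col18a1*, which carry the precursors of anti-angiogenic fragments, and *Col7a1*, the anchoring fibril collagen of skin, had means of at most 0.399 FPKM.

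Type VI collagen forms beaded filaments next to basement membranes, and its *Col6a1* and *Col6a2* genes lie on the same strand of chromosome 10. *Col6a1* was at 1.58 FPKM in WT Zt +6, 7.03 in *Snord116del* Zt +6, 0.748 in WT Zt +16 and 0.825 in *Snord116del* Zt +16. *Col6a2* was at 1.63, 3.21, 1.30 and 2.44 FPKM. The ratio of *Col6a1* to *Col6a2* was thus 0.966 in WT Zt +6, 2.19 in *Snord116del* Zt +6, 0.578 in WT Zt +16 and 0.338 in *Snord116del* Zt +16, although both chains go into the same trimer. The third classical chain, *Col6a3*, was at most 0.269 FPKM.

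Fibrillar collagens, the stuff of tendon, skin and bone, were sparse. *Col1a2*, a chain of type I collagen, stood at 0.960 FPKM in WT Zt +6, 1.25 in *Snord116del* Zt +6, 0.908 in WT Zt +16 and 1.46 in *Snord116del* Zt +16, and its partner *Col1a1* at 0.458, 0.476, 0.534 and 0.717 FPKM. *Col5a1*, which sets fibril diameter, was at 0.774, 2.40, 0.283 and 0.447 FPKM. Type I chains were therefore highest in the dark-phase *Snord116del* group and *Col5a1* in the light-phase *Snord116del* group.

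Among the collagens that sit on fibrils (FACIT collagens), *Col16a1* was at 1.19 FPKM in WT Zt +6, 1.53 in *Snord116del* Zt +6, 1.55 in WT Zt +16 and 2.00 in *Snord116del* Zt +16. The type IX chains *Col9a3* and *Col9a2*, best known from cartilage, were at 1.27, 1.29, 0.729 and 1.48 FPKM and at 0.698, 0.627, 0.939 and 1.62 FPKM. None of these 3 had its highest value in *Snord116del* Zt +6. *Col19a1*, named here after its values were seen and known in brain from interneurons, did: it was at 0.506, 2.50, 0.211 and 0.288 FPKM. *Col25a1*, a membrane-spanning collagen of neurons whose shed part is found in amyloid plaques, was at 0.780, 2.45, 0.560 and 0.693 FPKM, again highest in *Snord116del* Zt +6. Over all 43 collagens, 27 were highest in that group, where 52.6% of all genes of the table with a mean above 0 were.

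Laminin trimers combine an alpha, a beta and a gamma chain. *Lamb2*, a beta chain of mature basement membranes and synapses, was the most abundant laminin transcript, at 1.10 FPKM in WT Zt +6, 1.73 in *Snord116del* Zt +6, 1.35 in WT Zt +16 and 2.39 in *Snord116del* Zt +16. *Lamc1*, the most widely used gamma chain, was at 0.715, 2.27, 0.326 and 0.428 FPKM. *Lamb1*, the other widespread beta chain, was at 0.552, 1.01, 0.300 and 0.413 FPKM. *Lamb1* ranked the 4 groups in the same order as *Lamc1*, and *Lamb2* did not: *Lamc1* exceeded *Lamb2* 1.31-fold in *Snord116del* Zt +6 and was 0.647, 0.240 and 0.179 times as high in the other groups.

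*Lama2*, the alpha chain whose loss causes a congenital muscular dystrophy, was at 0.352 FPKM in WT Zt +6, 1.10 in *Snord116del* Zt +6, 0.0888 in WT Zt +16 and 0.131 in *Snord116del* Zt +16. *Lama4*, an alpha chain of blood vessels, was at 0.310, 0.936, 0.151 and 0.247 FPKM. All 5 alpha chains, with means of at most 0.419 FPKM, and 1 of the 3 beta chains had their highest value in *Snord116del* Zt +6. Over all 11 laminins, 9 were highest in that group, where 52.6% of all genes of the table with a mean above 0 were.

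*Itgav* encodes the alpha V subunit, which pairs with several beta subunits and binds the RGD motif of vitronectin, fibronectin and latent TGF-beta. It was the most abundant integrin transcript, at 2.53 FPKM in WT Zt +6, 12.8 in *Snord116del* Zt +6, 1.71 in WT Zt +16 and 2.08 in *Snord116del* Zt +16. *Itgb8*, the partner with which alpha V releases active TGF-beta in brain, was at 0.744, 4.60, 0.129 and 0.144 FPKM. In both genes *Snord116del* Zt +6 stood apart from the other 3 groups, and both dark-phase values lay under both light-phase values. *Itgb1*, the partner of most alpha subunits, was at 1.71, 5.61, 0.693 and 1.06 FPKM, and *Itgb5*, the vitronectin receptor subunit, at 1.46, 2.82, 0.853 and 1.00 FPKM. *Itgav* exceeded *Itgb8* 3.40-fold and 2.79-fold at Zt +6 but 13.3-fold and 14.4-fold at Zt +16, whereas its ratio to *Itgb1* stayed between 1.47 and 2.47.

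The laminin-binding alpha subunits were next in abundance. *Itga7* was at 0.528 FPKM in WT Zt +6, 1.59 in *Snord116del* Zt +6, 0.363 in WT Zt +16 and 0.320 in *Snord116del* Zt +16. *Itga3* was at 0.458, 1.58, 0.375 and 0.374 FPKM, and *Itga6* at 0.395, 1.95, 0.139 and 0.122 FPKM. For all 3 genes the *Snord116del* value was the higher in the light phase and slightly the lower in the dark phase. *Itga4*, which binds VCAM1 and fibronectin, was at 0.344, 0.940, 0.150 and 0.178 FPKM, and *Itga9*, a receptor for tenascin and osteopontin, at 0.331, 0.718, 0.212 and 0.342 FPKM.

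The leukocyte integrins described next were low. *Itgb2*, the beta subunit shared by leukocyte integrins and found in brain on microglia, was at 0.350 FPKM in WT Zt +6, 0.964 in *Snord116del* Zt +6, 0.551 in WT Zt +16 and 0.705 in *Snord116del* Zt +16. Its highest value was in *Snord116del* Zt +6, as for most integrin subunits, and its lowest in WT Zt +6. The leukocyte alpha subunits *Itgal*, *Itgad*, *Itgae* and *Itgax* and the beta subunit *Itgb7* had values of at most 0.216 FPKM, and none of the 5 was highest in *Snord116del* Zt +6. Of the 26 integrin subunits, 19 were, where 52.6% of all genes of the table with a mean above 0 were.

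The 6 genes matched by symbol only are described apart. *Itgb1bp1*, whose product binds the cytoplasmic tail of *Itgb1*, had the highest mean of all 86, and stood at 6.05 FPKM in WT Zt +6, 5.69 in *Snord116del* Zt +6, 9.18 in WT Zt +16 and 12.9 in *Snord116del* Zt +16. *Col4a3bp*, the ceramide transfer protein, was at 1.48, 4.09, 1.35 and 2.05 FPKM. Their patterns were unlike each other: the first was higher at Zt +16 in both genotypes, and the second was highest in *Snord116del* Zt +6. *Itgb3bp*, *Itgbl1*, *Itgb1bp2* and *Itgb1bp3* had means of at most 0.548 FPKM.

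To set these levels against the whole table, a gene was counted as changed when FPKM + 1 differed at least 1.5-fold (0.585 on the log2 scale) and the larger of the values reached 1 FPKM, among the same 10297 genes. Of the 86 genes 15 passed that filter: *Col6a1*, *Col6a2*, *Col4a1*, *Col4a2*, *Col16a1*, *Col9a3*, *Col1a2*, *Col25a1*, *Lamb2*, *Itgav*, *Itgb1*, *Itgb5*, *Itgb8*, *Itgb1bp1* and *Col4a3bp*. The other 71 did not, and *Col4a1*, *Col25a1* and *Itgb8* passed only through their value in *Snord116del* Zt +6. Fold changes below are on the log2 scale of FPKM + 1, which understates the change of low genes. No count here has a test, and the percentage beside each is the share of all tested genes counted in the same way.

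At Zt +6, 10 of the 15 were higher in *Snord116del* than in WT and 0 were lower, where 49.3% of all tested genes were higher and 7.62% lower. The median log2 fold change was 0.94 over the 15 and 0.57 over all tested genes. Without the 3 genes that passed only through *Snord116del* Zt +6, 7 of 12 were higher and the median was 0.66. With every gene of the table filtered on its mean over the other 3 groups, a choice made after the data were seen, 7 of 14 were higher, where 44.0% of 9212 genes were. The median was then 0.51 over the 14 and 0.48 over the 9212. The largest log2 fold change of the 15 was that of *Itgav* at 1.97, followed by *Itgb8* at 1.68 and *Col6a1* at 1.64. *Itgb1* (1.28), *Col4a2* (1.25), *Col4a3bp* (1.04), *Col25a1* (0.96), *Col4a1* (0.94), *Col6a2* (0.68) and *Itgb5* (0.64) also passed the fold rule. *Lamb2* at 0.38, *Col16a1* at 0.21, *Col1a2* at 0.20, *Col9a3* at 0.01 and *Itgb1bp1* at -0.08 did not. Because the median of all genes itself stood at 0.57, the change in excess of it was 1.40 for *Itgav*, 1.11 for *Itgb8*, 1.07 for *Col6a1* and 0.07 for *Itgb5*. Bulk tissue cannot tell more cells of a type from more RNA per cell.

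At Zt +16, 0 of the 15 passed the fold rule in either direction, where 19.0% of all tested genes were higher in *Snord116del* and 0.204% lower. *Col6a1*, *Col4a1*, *Col25a1* and *Itgb8* were under 1 FPKM in both genotypes at Zt +16, so the rule could not count them whatever their fold. All 15 log2 fold changes were above 0, as were 96.8% of those of all tested genes, and once all groups were scaled to 1 common total, 4 of the 15 and 24.1% of all tested genes were above 0. They ran from 0.02 for *Itgb8* to 0.58 for *Col6a2*, which fell just short of the rule (0.583 against 0.585). *Lamb2* and *Col9a3*, both at 0.52, came next. The median of the 15, 0.29, lay under that of all tested genes, 0.35. Over the 12 that also pass the filter without *Snord116del* Zt +6 it was 0.33. Of the 3 genes with the largest log2 fold changes in the light phase, *Itgb8* at 0.02 and *Col6a1* at 0.06 had the smallest of the 15 in the dark phase, and *Itgav* had 0.18.

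Time of day was compared within each genotype, with Zt +6 as the reference, and shares its groups with the genotype comparisons. In WT 0 of the 15 were higher at Zt +16 and 1 was lower, where 5.71% of all tested genes were higher and 10.3% lower. The lower gene was *Itgb1*, with a log2 fold change of -0.68, and *Itgb8* at -0.63 did not count because it reached 1 FPKM in neither WT group. *Col4a1*, *Col25a1* and *Col1a2* were also under 1 FPKM in both WT groups and could not count. *Col6a1* at -0.56 and *Itgb1bp1* at 0.53 also missed the rule. The median was -0.32 over the 15 and -0.04 over all tested genes. It was -0.26 over the 12 that also pass the filter without *Snord116del* Zt +6.

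In *Snord116del* 9 of the 15 were lower at Zt +16 and 1 was higher, where 39.1% of all tested genes were lower and 25.0% higher. The log2 fold change was -2.29 for *Itgb8*, -2.17 for *Itgav*, -2.14 for *Col6a1* and -1.68 for *Itgb1*. *Col4a2* (-1.28), *Col4a1* (-1.20), *Col25a1* (-1.03), *Itgb5* (-0.93) and *Col4a3bp* (-0.74) were the others that counted as lower, and *Itgb1bp1* (1.06) was the one higher gene. The median was -0.93 over the 15 and -0.24 over all tested genes. Without *Col4a1*, *Col25a1* and *Itgb8*, 6 of 12 were lower and the median was -0.52. *Snord116del* Zt +6 is a group of both this comparison and the light-phase genotype comparison, so a high value there enters both.

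**Figure D2:**
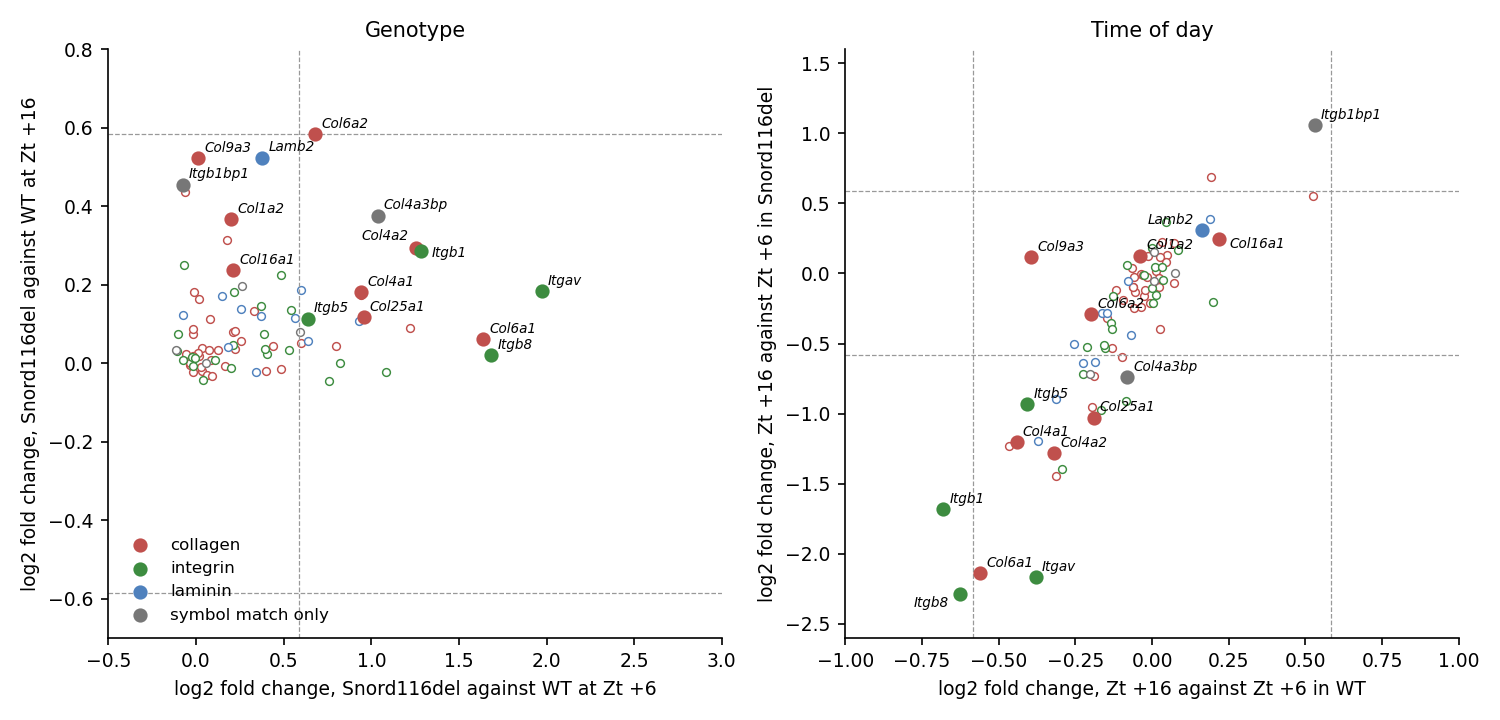
Log2 fold changes of FPKM + 1 for all 86 genes, by genotype (left, Zt +6 on the x axis and Zt +16 on the y axis) and by time (right, WT on the x axis and *Snord116del* on the y axis), with filled points for the 15 tested genes, open points for the 71 others and dashed lines at the 1.5-fold rule. On the left *Itgav*, *Itgb8* and *Col6a1* lie far to the right and near 0 on the y axis, and on the right the same 3 genes lie at or below -2.14 on the y axis.

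The 71 genes under the filter were too low for the fold rule to be read, and are given by the group in which they were highest. *Snord116del* Zt +6 was the highest group for 48 of the 71 (67.6%), against 48.3% of the genes of the table with a mean above 0 that also missed the filter. The shares in this paragraph were not matched for level or for transcript length, which had a median of 5576 bases over the 86 genes. For the 15 tested genes it was 10, where the share of all tested genes was 57.7%. WT Zt +16 was the lowest group for 47 of all 86 genes (54.7%), against 42.5% of all genes of the table with a mean above 0 and 50.3% of all tested genes. Without a filter the log2 fold change at Zt +6 was above 0 for 67 of the 86 (77.9%), against 64.6% of all genes of the table, and at Zt +16 for 70 (81.4%), against 74.3%. The last shares are over all 23235 genes, of which 22414 had a mean above 0. A gene at 0 in every group cannot have a change above 0, so such genes lower these shares.

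Transcript length moved with these changes across the whole table. With tested genes split into 5 bins of nearly equal size by the length of their longest annotated transcript, the median log2 fold change of *Snord116del* against WT at Zt +6 was -0.20, 0.34, 0.55, 0.81 and 1.14 from the bin of shortest to that of longest transcripts. At Zt +16 it went the other way, from 0.53 to 0.23, and in *Snord116del* the change from Zt +6 to Zt +16 went from 0.99 to -1.27. Matrix genes are long: the 15 tested genes had a median of 5347 bases against 3087 for all tested genes, 9 of them lay in the bin of longest transcripts and 0 in that of shortest. *Itgb1bp1*, at 1874 bases the shortest of the 15, was the one whose log2 fold change at Zt +6 was below 0.

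After the smoothed trend with length was subtracted, the median of the 15 at Zt +6 was -0.16. *Col6a1* kept 0.86 and *Itgav* 0.83, which still passed the fold rule, while *Itgb1* was at 0.57 and *Itgb8* at 0.46. *Col4a2*, *Itgb5* and *Col4a3bp* were at 0.16, 0.08 and 0.05, so little of their difference was left. *Col25a1*, *Col4a1* and *Col6a2* turned to -0.16, -0.17 and -0.24. *Lamb2* at -0.64, *Col16a1* at -0.75 and *Col1a2* at -0.78 counted as lower, although each was higher in *Snord116del* before the trend was taken out. In *Snord116del* the change from Zt +6 to Zt +16 was -1.56 for *Col6a1*, -1.19 for *Itgb1*, -0.90 for *Itgav*, -0.84 for *Itgb8* and -0.71 for *Itgb5* after the same step, and 1.32 for *Lamb2*, 1.16 for *Col16a1* and 1.08 for *Col1a2*.

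**Figure D3:**
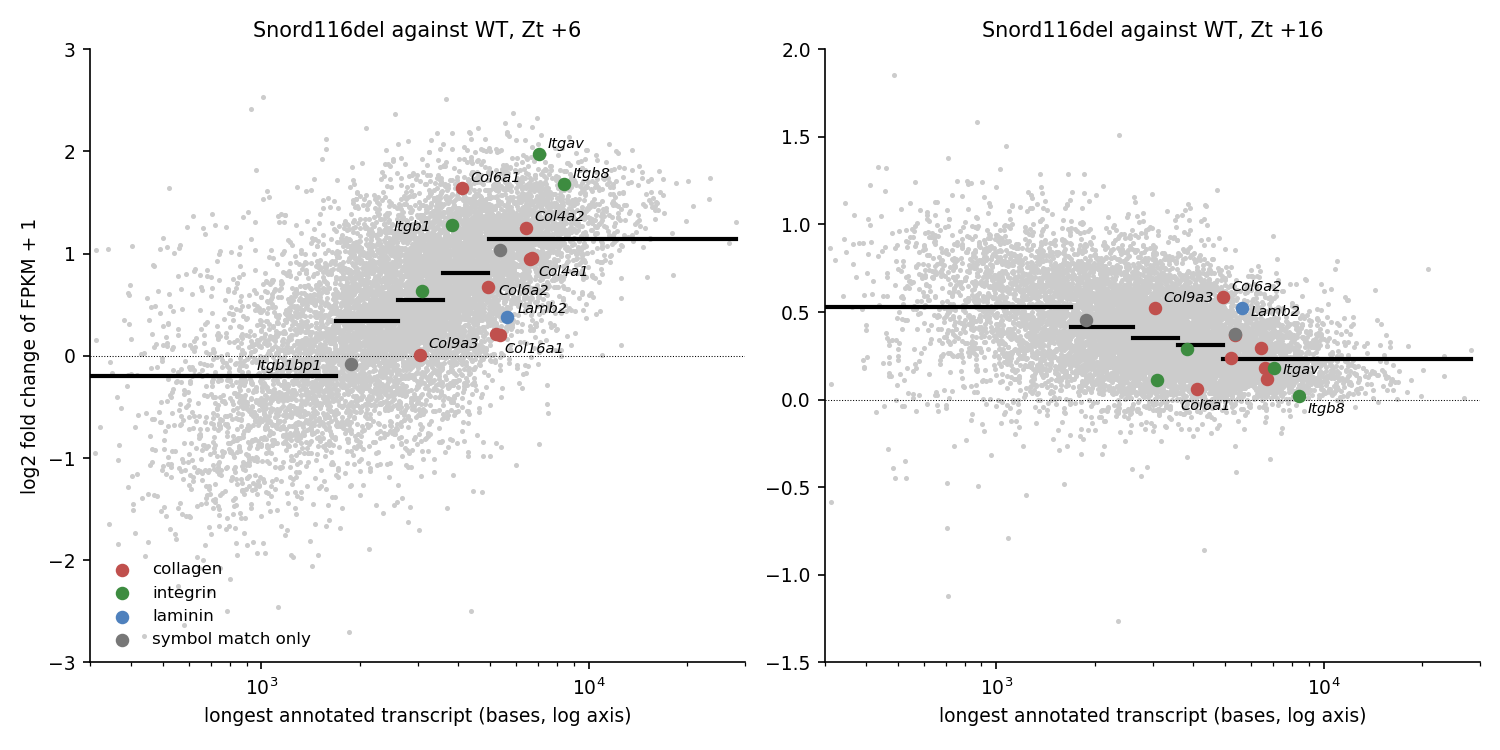
Log2 fold change of FPKM + 1, *Snord116del* against WT, by longest annotated transcript in bases (log axis) at Zt +6 (left) and Zt +16 (right), with grey points for the tested genes inside the axes, black lines for the median of each of the 5 bins by length and coloured points for the 15 tested genes described here. The black lines climb from -0.20 to 1.14 at Zt +6 and descend from 0.53 to 0.23 at Zt +16, and *Col6a1*, *Itgav* and *Itgb1* lie above them at Zt +6 while *Lamb2*, *Col16a1* and *Col1a2* lie below.

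Genes that work with these chains were counted from 5 lists, each given with the 2 genes of highest mean FPKM. Of 16 basement membrane partners 8 were tested, of which 7 were higher in *Snord116del* at Zt +6 and 1 at Zt +16, and 6 were lower at Zt +16 than at Zt +6 in *Snord116del*. The same rule counted 49.3%, 19.0% and 39.1% of all tested genes in these 3 comparisons, and the counts that follow are given in the same order. *Sparc*, a collagen-binding protein, was at 26.5 FPKM in WT Zt +6, 46.9 in *Snord116del* Zt +6, 41.9 in WT Zt +16 and 69.4 in *Snord116del* Zt +16, and *Sgcb*, a sarcoglycan of the dystroglycan complex, at 2.78, 7.45, 2.33 and 3.20 FPKM. The most abundant partner thus ranked the groups in the order of *Lamb2*, and the next had its highest value in *Snord116del* Zt +6, as *Col4a2* did. Of 26 genes of collagen processing 14 were tested, with counts of 9, 2 and 6. *P4hb*, the beta subunit of the prolyl hydroxylase that matures collagen, was at 6.54, 14.0, 4.62 and 6.81 FPKM, and *Bmp1*, which cleaves the C-terminal end of procollagens, at 4.60, 11.3, 4.69 and 8.00 FPKM.

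Of 22 integrin ligands such as fibronectin and the tenascins 9 were tested, with counts of 4, 1 and 5. *Vtn*, vitronectin, a ligand of alpha V integrins that pericytes make, was at 9.81 FPKM in WT Zt +6, 14.2 in *Snord116del* Zt +6, 8.09 in WT Zt +16 and 16.9 in *Snord116del* Zt +16, and *Tnr*, a tenascin of perineuronal nets, at 2.97, 12.1, 1.10 and 1.19 FPKM. Inside the cell, 20 of 26 genes of the integrin adhesion complex were tested, with counts of 15, 3 and 13. The kinases *Ptk2b* and *Src* were at 14.4, 29.4, 10.6 and 17.3 FPKM and at 10.4, 15.8, 4.50 and 8.68 FPKM. *Ptk2b* counted as higher in *Snord116del* at both times and as lower at Zt +16 in *Snord116del*, while its log2 fold change between times in WT was -0.41. *Src* counted as higher in *Snord116del* at Zt +16 and as lower at Zt +16 in both genotypes, and its log2 fold change by genotype at Zt +6, 0.566, missed the rule. Of 15 matrix metalloproteinases and their inhibitors 8 were tested, with counts of 5, 0 and 3. *Mmp17*, a membrane-anchored protease, was at 24.9, 41.8, 23.7 and 35.3 FPKM, and the inhibitor *Timp2* at 22.7, 23.4, 26.2 and 32.2 FPKM. The median log2 fold change at Zt +6 was 1.15, 0.77, 0.57, 0.89 and 0.69 over the tested genes of the 5 lists in the order given, beside 0.57 over all tested genes. The median transcript length of those genes was 5514.5, 2980.5, 2403, 3891.5 and 4007.5 bases, beside 3087 bases over all tested genes. In the bins that hold these lengths, the median log2 fold change of all tested genes was 1.14, 0.55, 0.34, 0.81 and 0.81. The genes of a list spread over several bins, and the part of length in these medians was not tested.

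Markers of vascular, meningeal and microglial cells, which carry many of these genes, are given beside them. The 10 endothelial markers summed to 12.8 FPKM in WT Zt +6, 34.8 in *Snord116del* Zt +6, 9.24 in WT Zt +16 and 11.7 in *Snord116del* Zt +16, and 7 of the 9 tested were higher in *Snord116del* at Zt +6, where 49.3% of all tested genes were. The 10 pericyte and smooth muscle markers summed to 21.5, 47.0, 14.0 and 26.8 FPKM, with 2 of 3 tested genes higher. The 10 meningeal fibroblast markers summed to 18.3, 23.6, 17.1 and 28.7 FPKM, with 2 of 7 higher. Without *Fmod*, the most abundant of them, the sums were 12.9, 20.1, 10.8 and 17.3 FPKM, and 5 of the 10 were highest in *Snord116del* Zt +6. The 10 microglia and leukocyte markers summed to 128, 155, 161 and 291 FPKM, with 5 of 9 higher. Of the 291 FPKM, *Tyrobp* gave 129.6 and *C1qb* 98.3, while 8 of the 10 markers were highest in *Snord116del* Zt +6. Of the endothelial markers 9 of 10, and of the pericyte and smooth muscle markers 9 of 10, were highest in *Snord116del* Zt +6. The same held for 52.6% of all genes of the table with a mean above 0. It also held for 8 of 10 neuronal, 6 of 8 astrocyte, 5 of 8 choroid plexus and 3 of 8 oligodendrocyte markers. No marker of the vascular, meningeal and microglial lists was at 0 in any group, and the part of cell makeup in the results was not tested.

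The second measurement of the series was chromatin isolation by RNA purification (ChIRP), in which biotinylated oligos against *116HG*, the long noncoding RNA of the *Snord116* locus, retrieve the RNA with the DNA bound to it. Peaks were called in 2 replicates of *116HG* ChIRP from WT brain and in 3 single control libraries: non-specific control (NSC) oligos on WT brain, and *116HG* oligos and NSC oligos on *Snord116del* brain. A replicate 1 peak was called replicated when a replicate 2 peak lay within 10 kb, and was given to a gene when it lay inside it or within 2 kb. By this rule 12 of the 86 genes (14.0%) had a replicated peak, where 10.9% of 21853 annotated genes of the table did. They were *Col6a2*, *Col6a6*, *Col11a1*, *Col14a1*, *Col17a1*, *Lamb1*, *Lamc3*, *Itgav*, *Itga9*, *Itga11*, *Itgad* and *Itgb3bp*, with 15 peaks. The median gene length was 79.2 kb for the 86 genes and 16.1 kb for all genes. Of the 12, *Itgav* and *Col6a2* had a mean of at least 1 FPKM, as did 15 of the 86.

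Within single lists, replicate 1 had peaks at 54 of the 86 genes (62.8%), where 59.3% of all genes had one, and replicate 2 at 20 (23.3%), where the share was 13.8%. The controls had peaks at 4 genes (4.65%) with NSC oligos on WT, where 2.30% of all genes had one, at 4 (4.65%) with *116HG* oligos on *Snord116del*, where 2.26% did, and at 15 (17.4%) with NSC oligos on *Snord116del*, where 7.87% did. These genes thus exceeded the share of all genes in every list, the 3 control lists included.

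The replicates differed in where their peaks lay. In replicate 1, 86 of 164 peaks at these genes (52.4%) had their middle in an exon. In replicate 2, 0 of 25 did and all 25 lay in introns. The genes with most replicate 1 peaks were *Itgav* with 17, of which 16 were in exons, *Itgb8* with 14, all in exons, and *Itgb1* with 12, of which 11 were in exons. Replicate 2 had no peak at any of these 3. Over the 86 genes the number of replicate 1 peaks and the mean FPKM had a Spearman correlation of 0.53, and that of replicate 2 peaks -0.21, beside 0.74 and 0.090 over 21853 genes of the table. This is a description, since the genes of a list share a library and its depth.

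**Figure D4:**
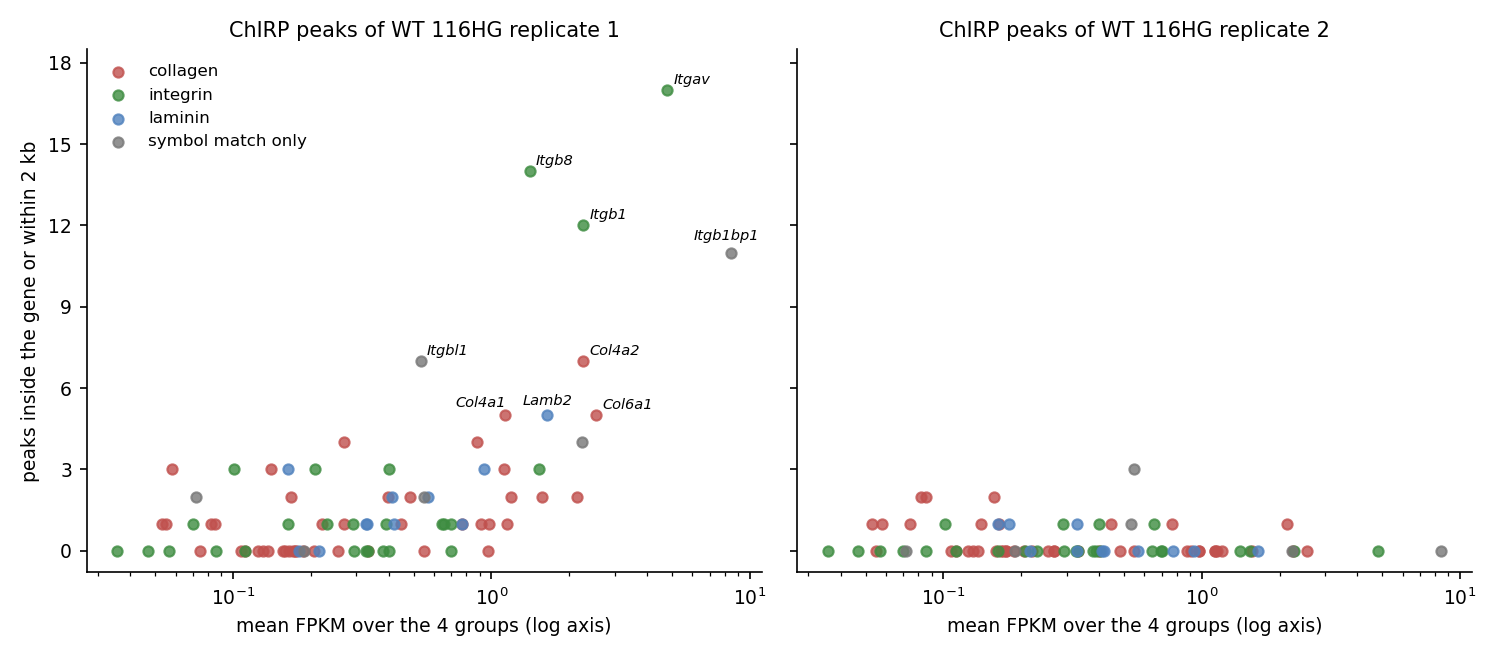
Number of ChIRP peaks inside each of the 86 genes or within 2 kb of it, by mean FPKM over the 4 groups (log axis), for WT *116HG* replicate 1 (left) and replicate 2 (right). In replicate 1 the counts reach 17 at *Itgav* and 14 at *Itgb8*, whereas in replicate 2 no gene has more than 3 and the 2 genes of highest FPKM have 0.

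A few peaks show what the 2 replicates had in common. The Itgav peak lies in an exon 466 bases from the start of the gene and counted as replicated only because a replicate 2 peak lay 9404 bases off. The Col17a1 peak is 1 of 7 that overlapped a replicate 2 peak directly, and capitals mark its longest run of a single base. The Itga9 peak overlapped peaks of all 5 lists, and capitals mark the bases that lie inside a peak in every list. All are on the plus strand of mm9, from replicate 1.
Itgav, chr2:83564958-83565083: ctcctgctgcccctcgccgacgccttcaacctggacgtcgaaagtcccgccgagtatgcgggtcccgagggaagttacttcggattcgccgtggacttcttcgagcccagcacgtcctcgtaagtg
Col17a1, chr19:47762685-47762767: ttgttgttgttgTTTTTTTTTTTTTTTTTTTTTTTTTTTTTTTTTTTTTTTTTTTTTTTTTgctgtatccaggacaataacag
Itga9, chr9:118584000-118584268: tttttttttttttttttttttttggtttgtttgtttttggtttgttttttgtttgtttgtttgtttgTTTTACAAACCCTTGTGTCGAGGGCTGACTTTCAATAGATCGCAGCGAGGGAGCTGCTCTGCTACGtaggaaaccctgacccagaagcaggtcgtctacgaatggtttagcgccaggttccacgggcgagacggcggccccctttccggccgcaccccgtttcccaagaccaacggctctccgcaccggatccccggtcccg
The run of T in the *Col17a1* peak was 49 bases long. A run of at least 20 A or T was present in 5 of the 7 peaks of replicate 1 that overlapped a replicate 2 peak and in 1 of the other 8. The middle 32 bases occurred once in the genome for 6 of the 15 peaks. At *Itga9* the 66 marked bases, in an intron, were inside the NSC peak of WT, with a fold over input of 32.7, and inside both *Snord116del* peaks, with folds of 22.3 and 36.8, beside 67.1 in replicate 1. It was the only one of the 15 replicated peaks to overlap a control peak.

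At the shared start of *Col4a1* and *Col4a2*, replicate 1 had a peak at chr8:11312838-11312944, inside the window shown above, with a fold over input of 71.8. The nearest replicate 2 peak was 254548 bases away, so it did not count as replicated. The NSC oligos on *Snord116del* brain gave a peak at chr8:11313038-11313350 in *Col4a2*, with a fold of 22.8. *Col4a1* and *Col4a2* thus had no replicated peak, and neither did *Itgb8*, *Itgb1* or *Col6a1*, whereas *Itgav* had the distant match just described.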

How the data were processed

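RNA-seq of mouse cortex and ChIRP-seq of mouse brain were analysed from the deposited files. Per the labels' processing notes and the study's methods, the authors aligned RNA-seq reads with TopHat2 2.0.5 to mm9 and deposited 1 Cuffdiff 2.0.2 FPKM value per gene and group. They aligned ChIRP reads with Bowtie2 2.0.0 and called peaks per library with MACS 1.4.2. The deposited fold of each peak over input is a ratio by MACS. The peak list of replicate 2 gives positions only. The table also has the authors' own log2 fold changes, q-values and calls for the genotypes, which were not used. Depth cannot be read from the FPKM, and the reads per sample that the paper lists were not used. The spread between mice is not shown.

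Genes were selected by symbol. The members and gene lists were chosen with earlier results of these data known. The genes named with values were the 10 collagens, 6 laminins and 10 integrins of highest mean FPKM and the 3 with the largest rise and fall in each comparison, of which 1 gene is not reported here. *Col1a1* and *Col19a1*, the ratios of pairs of genes and the peaks printed were chosen after their values were seen. A limma fit was planned for values per mouse, and the fold rule described above was used because the table holds 1 value per group. Symbols were matched to GENCODE vM1 (NCBIM37, which is mm9), where 21853 of 23235 genes and all 86 members were found, and a transcript length was known for 98.7% of tested genes. The trend with length was a lowess curve (fraction 0.3) of log2 fold change on log length. The middle base decided whether a peak was exonic. Start windows, and those of all protein-coding genes set beside them, were read from the NCBIM37 genome at GENCODE starts. The steps were tested on simulated data. Alternatives covered the pseudocount, the filter, the fold, the scale of the groups, the length trend, the distance and height of replicated peaks and each WT *116HG* replicate left out. Calculations used Python 3.11.15, pandas 2.3.3, numpy 2.4.6, statsmodels 0.14.6 and scipy 1.17.1, and plots matplotlib 3.10.9.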

Additional observations from a re-analysis of the deposited data

How the results depend on the processing

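No paired analysis was possible because the table holds 1 value per group, with no replicate. For *Snord116del* against WT at Zt +6, the 10 genes higher and 0 lower became 21 of 86 higher with no filter on the mean, where 26.0% of all genes were, 0 higher with a mean of at least 5 FPKM (which left *Itgb1bp1* alone), 6 higher at 2-fold (26.7% of all tested genes), 5 higher and 1 lower both with the same median in every group (15.0% and 24.4%) and with quantile normalization (22.2% and 20.6%), and 2 higher and 3 lower with the length trend subtracted (12.5% and 13.2%). At Zt +16, the 0 higher became 4 with a pseudocount of 0.1 (30.3%). For Zt +16 against Zt +6 in WT, the 0 higher and 1 lower became 1 and 4 with a pseudocount of 0.1 (8.14% and 18%), 1 higher with the same median (10.8%), 8 lower with the same total (29.0%), and 0 lower with a mean of at least 5 FPKM, at 2-fold, with quantile normalization and with the length trend subtracted. In *Snord116del*, the 1 higher and 9 lower became 2 and 20 of 86 with no filter (11.4% and 21.9%), 0 lower with a mean of at least 5 FPKM, 2 higher with the same median (35.0%), 0 higher with the same total (8.31%), 2 higher with the filter on the other 3 groups, added after the data were seen (28.2%), and 4 higher and 5 lower both with quantile normalization (30.2% and 28.2%) and with the length trend subtracted (24.6% and 24.4%). Percentages are shares of all genes under the same setting.

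The median of the tested members turned to -0.076 at Zt +6, 0.53 in WT and 1.06 in *Snord116del* with a mean of at least 5 FPKM, to -0.049 at Zt +16 with the same total, and with the length trend subtracted to -0.16 at Zt +6, -0.045 at Zt +16, 0.0024 in WT and 0.18 in *Snord116del*. With the filter on the other 3 groups it was 0.51 at Zt +6 and -0.088 in *Snord116del*, beside 0.48 and -0.075 over all genes under the same filter. Under the length trend *Col25a1*, *Col4a1* and *Col6a2* turned to -0.16, -0.17 and -0.24 at Zt +6, and *Col25a1* to 0.18 for time in *Snord116del*. The median of all tested genes at Zt +6 moved from 0.57 to -0.06 with the same median and 0.03 with quantile normalization, and at Zt +16 from 0.35 to -0.11 with the same total.

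The 12 members with a replicated peak (14.0%, against 10.9% of all genes) became 7 when the replicates had to overlap directly (8.14%, against 3.32%). They became 6 in the upper quartile of the fold (6.98%, against 5.40%). With replicate 1 left out they were 20 (23.3%, against 13.8%), and with replicate 2 left out 54 (62.8%, against 59.3%). The causes were not tested, apart from the number of genes left by each filter. With pooled values and no counts, and with the authors' q-values not used, no difference given here has an error. Low values were not weighed by depth. The paper lists reads per sample, the fewest for a *Snord116del* Zt +6 mouse.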
